A study of Mus musculus with 55 samples.

Results

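Gsta1, Gsta3 and Gsta4 are the alpha-class glutathione S-transferase genes that the mouse annotation lists beside Gsta2. They were taken by gene symbol, which gave 3 of the 37620 genes in the deposited tables (ENSMUSG00000074183, ENSMUSG00000025934 and ENSMUSG00000032348). Liver RNA of 55 untreated male mice from 29 Collaborative Cross lines was sequenced. Each line is a recombinant inbred strain that carries its own mixture of the same founder genomes, and the paper gives a range of inbreeding generations for the mice. Of the lines, 8 had 1 mouse, 16 had 2 and 5 had 3, so the line was the only factor of the design and 21 lines gave a spread between line mates. The mice were 8.0 to 11.9 weeks old and weighed 12.8 to 38.0 g, and no genotype or treatment other than the line separated them. Each mouse had between 20542671 and 33953036 fragments assigned to genes, with 27700357 in the median mouse. As a check of the line labels, each of the 47 mice with a line mate was compared with all others by the Spearman correlation of its FPKM over genes with a mean of at least 1 FPKM, and 42 were closest to a line mate. Of the other 5, both libraries labelled IL-1052 were closest to libraries labelled IL-2750 (rho = 0.975 and 0.965, against 0.924 between themselves), 2 labelled IL-2750 were closest to them in turn, and 1 labelled IL-2146 was nearly as close to its line mate (0.966) as to the mouse of IL-1141 (0.967). Results were also computed without IL-1052 and IL-2750, and those values are given where a call changed or a value moved by more than 1.5 times.

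Glutathione S-transferases join the tripeptide glutathione to reactive electrophiles, which makes these compounds soluble and lets transporters export them from the hepatocyte. The alpha class works as dimers of closely related subunits and also reduces lipid hydroperoxides. Gsta3 is the subunit that mouse hepatocytes make in bulk and is known for its high activity towards the epoxide of aflatoxin, Gsta4 prefers 4-hydroxynonenal and related products of lipid peroxidation, and Gsta1 and Gsta2 are the inducible subunits whose genes respond to phenolic antioxidants.

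The annotation of the build used for the deposited files (NCBIM37) puts Gsta3 alone on chr1:21230670-21255442 on the plus strand. The other genes lie together on chromosome 9. Gsta4 is at chr9:78039773-78057155 and Gsta1 at chr9:78078463-78090491, both on the plus strand. They are followed by the gene models Gm3776 at chr9:78104949-78116973 and Gm10639 at chr9:78137730-78153332, also on the plus strand, and by Gsta2 at chr9:78178825-78203595 on the minus strand. All 6 are annotated as protein coding.

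How far a sequenced fragment can be assigned to 1 of these genes depends on how their transcripts differ. The coding sequence of Gsta1, 672 bases long, was 99.7% identical to that of Gm3776, with the substitutions T25C and C591T counted from the start codon (the Gsta1 base first). It was 97.5% identical to Gsta2, 74.0% to Gsta3 and 66.5% to Gsta4. The stretch of the last coding exon that follows is at chr9:78090291-78090380 on the plus strand of NCBIM37 for Gsta1. It was chosen as the 90 bases within 1 coding exon where Gsta1 and Gsta2 differ most, so other stretches differ no more. It also holds one of the bases that separate Gsta1 from Gm3776. Capitals mark bases that differ from Gsta1, 1 in Gm3776, 6 in Gsta2 and 7 in Gm10639.
Gsta1: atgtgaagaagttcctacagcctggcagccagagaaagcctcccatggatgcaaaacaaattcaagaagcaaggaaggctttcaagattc
Gm3776: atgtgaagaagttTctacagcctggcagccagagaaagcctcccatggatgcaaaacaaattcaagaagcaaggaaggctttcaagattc
Gsta2: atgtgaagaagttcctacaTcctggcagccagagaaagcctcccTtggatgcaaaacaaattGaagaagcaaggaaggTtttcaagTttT
Gm10639: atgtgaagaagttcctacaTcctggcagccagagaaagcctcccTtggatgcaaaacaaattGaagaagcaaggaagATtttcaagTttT
The main Gsta1 transcript holds 826 windows of 50 bases, the length read at each end of a fragment. Of these, 85 (10.3%) occurred in no protein-coding transcript of another gene. Noncoding transcripts of genes outside this family were not searched. Gm3776 shared 685 of the 826 windows and Gsta2 shared 368. In that search, all 1108 windows of the main Gsta3 transcript and all 908 of Gsta4 were their own. In Gsta2, 284 of 821 (34.6%) were. The deposited fragment counts carried the same difference, since those of Gsta3 and Gsta4 were whole numbers in all 55 mice, whereas those of Gsta1 were fractional in 54, as the authors' program divides a fragment that matches several genes among them.

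The levels of the 3 genes differed in size and in how strongly they followed the line. Levels are given in FPKM, fragment counts scaled to transcript length and to sequencing depth, which allows genes of different length to be compared. Gsta3 had a median line mean of 974 FPKM, Gsta4 of 59.9 FPKM and Gsta1 of 4.77 FPKM, beside 39.5 FPKM for Gsta2. Within the summed FPKM of the alpha-class genes, Gsta3 made up between 66.6% (IL-1513) and 96.2% (IL-519) of a line's total. Gsta4 made up between 2.39% and 10.9%, and Gsta1 between 0.0889% and 2.70%. In none of the 29 lines did another alpha-class gene exceed Gsta3.

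Gsta3, the bulk subunit, varied least between lines. Its line means ran from 511 FPKM in IL-2011 to 1709 FPKM in IL-2126, a ratio of 3.34, with a mean of 979 ± 271 FPKM (SD over 29 lines) and an SD of 196 FPKM between mice of a line. The 2 mice of the lowest line, IL-2011, had 223 and 800 FPKM, and without the higher of them the ratio was 7.65. The highest line, IL-2126, had 1 mouse, and without it the ratio was 2.86. The spread expected between 2 line means was taken as the SD within lines of log2(FPKM + 1), scaled by the numbers of mice. None of the 28 gaps between lines adjacent in the order of means exceeded it, so the order of neighbours cannot be read. IL-4032, with 1 mouse at 1460 FPKM, was next to IL-2126 at the upper end, and the mice of IL-3912 (591 and 580 FPKM) and of IL-1513 (706 and 575 FPKM) followed IL-2011 at the lower end. The mice of IL-611, in the upper part of the order, had 1381, 1200 and 1168 FPKM. These lines were picked by their place in the order of the same values, so their distance is no test of a difference.

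Gsta4, the 4-hydroxynonenal transferase, had the clearest separation of lines. Its line means ran from 20.5 FPKM in IL-519, whose mice had 21.01 and 19.94 FPKM, to 229 FPKM in IL-2126, which had 1 mouse, a ratio of 11.2. The mean was 65.5 ± 36.5 FPKM (SD over 29 lines) with an SD of 11.1 FPKM within lines. Both ends stood apart from their neighbours. The step from IL-519 to IL-3438 (30.02 and 35.25 FPKM) was 2.53 times the spread expected between 2 such means, and the step from IL-4032 (112 FPKM, 1 mouse) to IL-2126 was 2.84 times. The single mouse of IL-2126 was also the highest for Gsta3 and the least deeply sequenced (20542671 fragments), and among the lines with at least 2 mice the ratio of the highest to the lowest mean of Gsta4 was 4.56. Mice of a line differed in Gsta4 by a median factor of 1.21, and only in IL-2156 (97.3, 94.4 and 45.2 FPKM) by more than 2-fold.

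Gsta1, the low and inducible subunit, had the widest range and the poorest agreement between line mates. Its line means ran from 0.93 FPKM in IL-519 (1.46 and 0.40 FPKM) to 30.2 FPKM in IL-4032, represented by 1 mouse, a ratio of 32.4. The ratio was 75.4 without the higher mouse of IL-519 and 55.1 with the FPKM of Gm3776, a near-identical gene model, added to Gsta1. The next highest line, IL-1513, had 25.3 and 26.6 FPKM. The lines at the low end were IL-519, IL-3438 (0.75 and 1.31 FPKM), IL-2011 (0.76 and 1.35 FPKM) and IL-72 (1.24 and 0.94 FPKM), whose mice overlapped with each other. The mean was 6.76 ± 6.79 FPKM (SD over 29 lines) with an SD of 4.03 FPKM within lines. In 10 of the 21 lines with at least 2 mice the highest and the lowest mouse differed by more than 2-fold, against 1 line each for Gsta3 and Gsta4. The 3 mice of IL-2156 had 13.1, 3.92 and 0.61 FPKM, and the 2 of IL-3575 had 5.16 and 23.7 FPKM. How far the division of fragments shared with Gm3776 adds to these differences between mates was not tested. Gsta1 rested on 9.98 to 710 estimated fragments per mouse with a median of 82.8, whereas Gsta4 had 543 to 4249 and Gsta3 6150 to 44290.

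**Figure D1:**
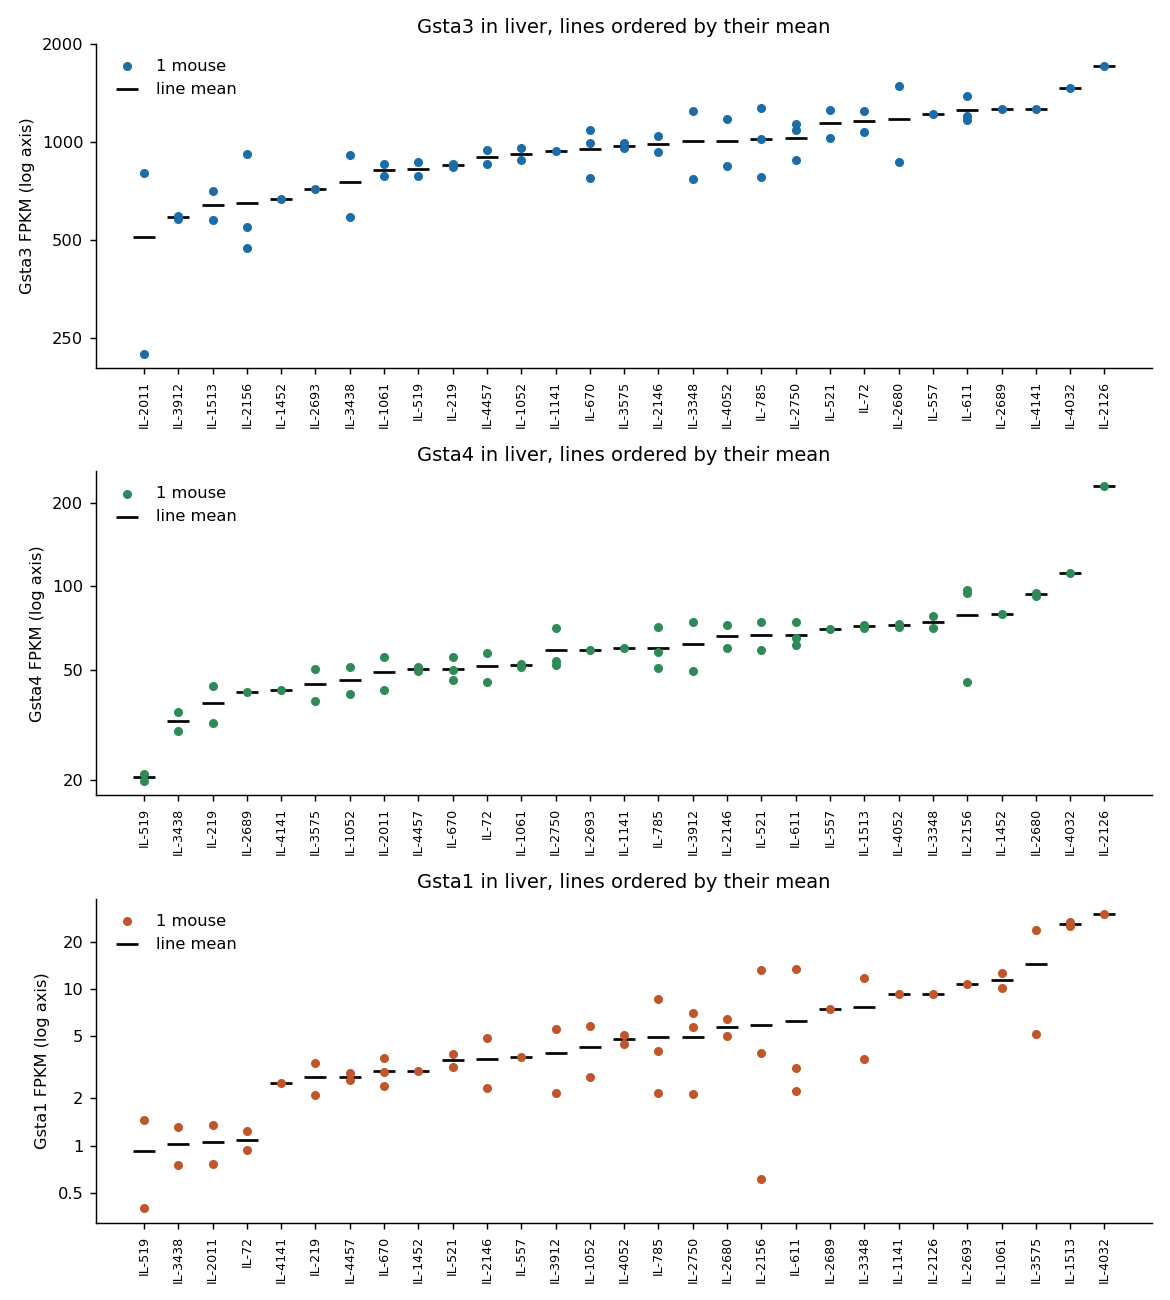
FPKM of Gsta3, Gsta4 and Gsta1 (log axes) in the 29 lines, each panel ordered by its own line means, with 1 point per mouse and a bar at the line mean. Gsta3 rises gradually from 511 to 1709 FPKM, Gsta4 has IL-519 and IL-2126 set apart at its ends, and Gsta1 has line mates far apart in several lines, such as 13.1 and 0.61 FPKM in IL-2156.

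All 3 genes differed between lines. The 47 animals from lines with line mates were tested with edgeR (quasi-likelihood F test for line), where edgeR's adjusted p (Benjamini-Hochberg over the genes tested) was 2.54e-05 for Gsta4, 0.00125 for Gsta1 and 0.0126 for Gsta3, and each stayed below 0.05 with every single mouse left out in turn. Of the 15285 genes tested, 13523 were called, which is 88.5%, so a difference between lines was common in these livers. The share of variance that lay between lines, measured as an intraclass correlation on rank-based scores of all 55 mice, was 0.65 for Gsta4, 0.461 for Gsta3 and 0.398 for Gsta1. One-sided permutation tests of line labels gave p = 3e-05, p = 0.00702 and p = 0.0195. Against the 5949 genes that varied enough to be scored in the same way, whose median was 0.592, Gsta4 stood at the 65.0th percentile, Gsta3 at the 20.98th and Gsta1 at the 12.0th. For Gsta3 the value on log2(FPKM + 1) in place of scores was 0.388 with p = 0.0587 in the same permutation test, which did not pass the threshold of 0.05. On log2 values Gsta1 had 0.494 (permutation p = 0.00496) and Gsta4 had 0.79 (permutation p = 1e-05). With the FPKM of Gm3776 added to Gsta1, the value on scores was 0.534 (permutation p = 0.00177), above the 0.398 of Gsta1 alone.

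Gsta3 carried 3 annotated isoforms, and their proportions also followed the line. The share of an isoform is the percentage of a gene's transcripts that the authors' program attributes to it. The main isoform ENSMUST00000027067, of 1157 bases, made up 80.5 ± 5.03% (SD over 29 line means). Isoform ENSMUST00000121676, of 894 bases, has an additional 95-base exon (chr1:21235019-21235113) ahead of the same 666-base coding sequence and made up 14.1 ± 4.03%. Isoform ENSMUST00000124990, of 738 bases, made up 5.47 ± 3.67%. Limma's moderated F test for line gave adjusted p = 0.00275, 0.00568 and 0.00178, respectively. Of the 21415 isoforms tested, 6020 were called, which is 28.1%.

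The isoform ENSMUST00000124990 holds an exon of 140 bases that the other 2 lack. The exon is the third of its transcript, at chr1:21244765-21244904 on the plus strand of NCBIM37, inside the coding region and after codon 29 of the main isoform. It is shown with 10 bases of intron on either side, because the share of this isoform had the highest intraclass correlation of the Gsta3 measures. Capitals mark the splice acceptor AG before the exon and the donor GT after it.
Gsta3 optional exon: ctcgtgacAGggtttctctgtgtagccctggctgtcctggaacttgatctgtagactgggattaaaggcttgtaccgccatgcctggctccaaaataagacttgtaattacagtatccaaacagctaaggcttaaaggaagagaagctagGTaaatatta
Read on from the frame of the main isoform, the exon brings a stop codon at codon 34, and the annotation gives the transcript no coding sequence. None of the 91 windows of 50 bases in the exon occurred in a protein-coding transcript of another gene, and noncoding transcripts were not searched. Within it, the 20-base run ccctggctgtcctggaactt had 211 copies on both strands of chromosome 1.

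The share of the optional-exon isoform varied widely over the lines and is described here in 3 ranges. It was below 1% in 3 lines, between 2.66% and 5.85% in 20 lines, and between 7.86% and 16.9% in 6 lines (these bounds were set after the values were seen). Within the upper range the line means rose from 10.8% (IL-1452) to 13.8% (IL-219) and 16.9% (IL-3912), so its lower bound marks no wider gap than those. The 3 mice of IL-2156 had 0%, 0% and 0.05%, the single mouse of IL-557 had 0.19% and that of IL-2693 had 0.28%. In the 2 mice of IL-2156 at 0%, Gsta3 had 17027 and 25692 fragments, which allows shares of up to 0.0176% and 0.0117% of its fragments (3 fragments, counting error only). At the other end stood IL-3912 with 17.9% and 16.0%, IL-219 with 14.2% and 13.4%, the single mouse of IL-1452 with 10.8%, IL-1513 with 8.48% and 10.7%, IL-3348 with 9.42% and 8.02%, and IL-2680 with 9.13% and 6.59%. The SD within lines was 0.759%. With these bounds, the mice of the upper 2 groups of lines overlapped only in that the lowest mouse of IL-2680 (6.59%) lay below the highest of IL-2750 (6.64%). Bounds chosen on the values favour such a small overlap. The intraclass correlation of the share was 0.895, with p = 1e-05 in the permutation test, the smallest p that 100000 permutations can give. The share rested on up to 2562 estimated fragments per mouse, with a median of 963.

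The share of the optional-exon isoform was not detectably related to how much Gsta3 a line made. Across 29 line means, Pearson's r between the share and Gsta3 in log2(FPKM + 1) was -0.25 with permutation p = 0.189, Spearman's rho was -0.0756 with permutation p = 0.694, and r was -0.35 (permutation p = 0.0701) without IL-2011 and IL-2126, the 2 lines farthest from the median of Gsta3. The adjusted p over the 33 relations computed between line means was 0.383 for r and 0.79 for rho. The lines with the highest shares, IL-3912 (16.9%), IL-219 (13.8%), IL-1452 (10.8%) and IL-1513 (9.60%), had 585, 848, 669 and 640.5 FPKM of Gsta3. All lay below the median line mean of 974 FPKM, whereas IL-3348 and IL-2680 with 8.72% and 7.86% had 1007 and 1176 FPKM.

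The isoform with the additional exon ahead of the coding sequence, ENSMUST00000121676, had 1 mouse far from the others. A mouse of IL-2146 had a share of 46.2% and its line mate 18.7%, while the other 53 mice had between 7.97% and 17.5%. Total Gsta3 differed little between the mates, at 1039 and 927 FPKM. The share varied between lines by limma's test on scores, but on the percentages themselves its adjusted p was 0.052.

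Gsta4 has 1 annotated isoform of 957 bases, so no share could vary. Gsta1 has 2, the main ENSMUST00000098537 of 875 bases and ENSMUST00000127192 of 683 bases, which is annotated as a retained intron and whose first exon is at chr9:78082810-78082942. The shorter isoform was above 0 in 17 of 55 mice, and in 12 of the 21 lines with line mates every mouse had 0%. In a few other lines the mates were far apart. It made up 100% of Gsta1 in 1 mouse of IL-3912 and 0% in the other, and 93.7% and 0% in the 2 mice of IL-3438. It had at most 51.8 estimated fragments in any mouse, and 39.5 and 11.4 in these 2. Limma's adjusted p for line was 0.217 for both isoforms of Gsta1, and the alternatives that could be computed gave between 0.0758 and 0.461. The intraclass correlation of either isoform over all 55 mice was 0.359, with p = 0.0434 in the one-sided permutation test.

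**Figure D2:**
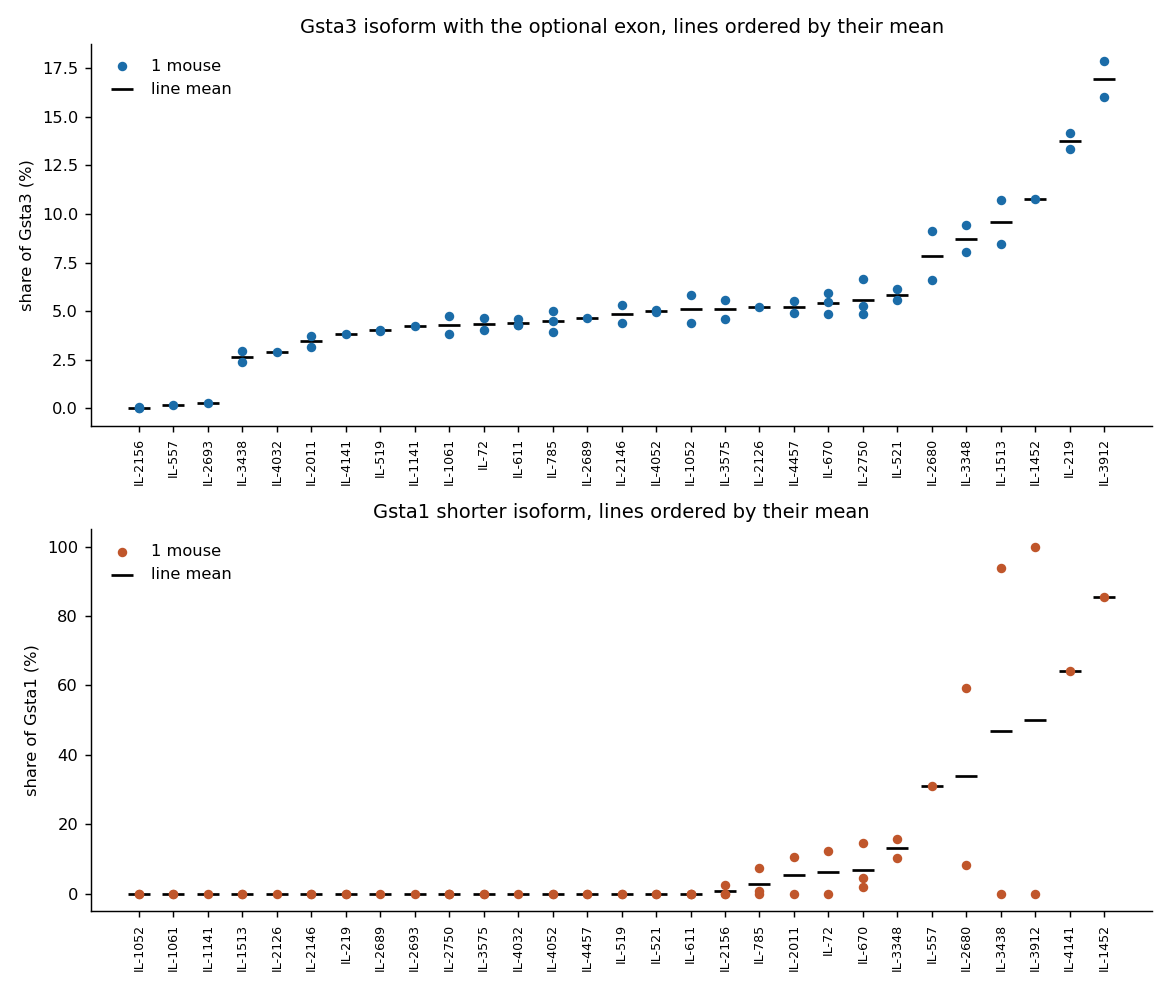
Share of the optional-exon isoform in Gsta3 (upper panel) and of the shorter isoform in Gsta1 (lower panel), in percent, in the 29 lines ordered by their mean, with 1 point per mouse and a bar at the line mean. Mice of a line lie close together for Gsta3, from 0.0167% in IL-2156 to 16.9% in IL-3912, whereas for Gsta1 all mice are at 0% in 12 of the 21 lines with line mates and mates are far apart in IL-3912, IL-3438 and IL-2680.

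Next, the total level of each gene was compared with Gsta2 across the 29 line means, since line mates are animals of the same strain and not independent points. Gsta1 rose with Gsta2. In log2(FPKM + 1), Pearson's r was 0.862 with permutation p = 1e-05, the smallest that 100000 permutations can give, and Spearman's rho was 0.861 with permutation p = 1e-05. Without IL-1513 and IL-3438, the 2 lines farthest from the median of Gsta2, r was 0.812. In limma with Gsta2 as covariate over the 10332 genes with a mean of at least 1 FPKM the adjusted p of Gsta1 was 4.4e-06, and 11 genes were called, all positive (0.106% of those tested and 0% negative). That count was 1 without IL-1052 and IL-2750, 1 with TPM, 1 with depth, age and body weight as covariates, and between 1 and 74 with a line left out (74 without IL-2146, of which 5 were negative). Gsta2 exceeded Gsta1 in every line, by a factor between 3.28 in IL-2156 and 16.5 in IL-1452.

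Since Gsta1 shares most of its windows with Gm3776, the sum of both was examined as well. With the FPKM of Gm3776 added to that of Gsta1, an alternative chosen after seeing how few windows are specific to Gsta1, r with Gsta2 was 0.785 (permutation p = 3e-05). Gsta1 itself was related to Gm3776 with r = 0.645 (permutation p = 0.00014) and rho = 0.664 (permutation p = 0.00018), and with r = 0.474 without IL-3575 and IL-4032. The 2 models did not always go together. Both mice of IL-1513 had 0 FPKM of Gm3776 with 25.3 and 26.6 FPKM of Gsta1, whereas the mouse of IL-4032 had 43.4 FPKM of Gm3776 and 30.2 FPKM of Gsta1. How much of the relation between Gsta1 and Gsta2 comes from shared fragments was not tested.

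Gsta4, which shared no window of 50 bases with other protein-coding genes, was also related to Gsta2 across lines. It had r = 0.626 (permutation p = 0.00021) and rho = 0.552 (permutation p = 0.00228). Leaving out IL-1513 and IL-3438 gave r = 0.622. Over the 33 relations computed between line means, the adjusted p of r was 0.000165 for Gsta1 and 0.00145 for Gsta4. Adjusted over all genes in the limma fit with Gsta2 as covariate, p was 0.0544 and missed the threshold of 0.05. In the reverse fit with Gsta4 as covariate the adjusted p of Gsta2 was 0.0467. The adjusted p of the first fit was 0.0421 without IL-2146 and 0.049 without IL-611, and ran up to 0.273 under the other alternatives.

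Gsta3 was not detectably related to Gsta2 over all lines, with r = 0.294 (permutation p = 0.122), rho = 0.296 (permutation p = 0.118) and a limma adjusted p of 0.507. IL-1513 had the highest Gsta2, at 231 and 209 FPKM, and the third lowest Gsta3 mean. Without IL-1513 r was 0.469 (permutation p = 0.0112), and without both IL-1513 and IL-3438 it was 0.443 (permutation p = 0.0209). Without the higher mouse of IL-2011 the unadjusted p also fell below 0.05.

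**Figure D3:**
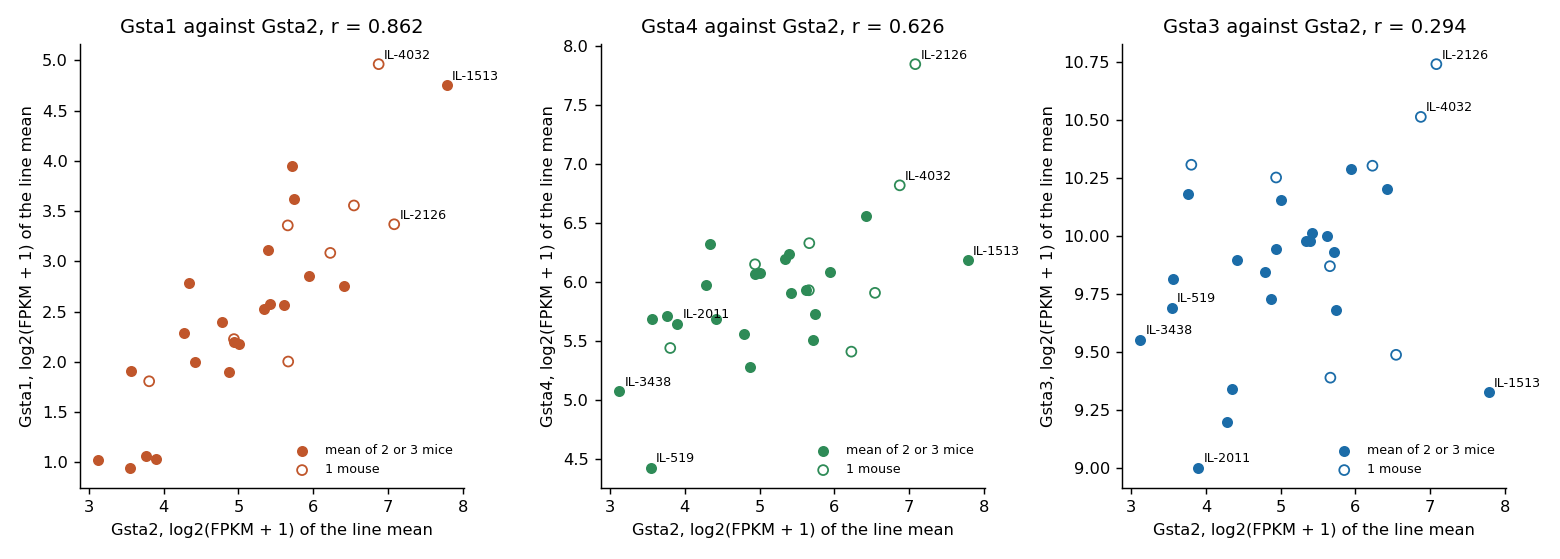
Line means of Gsta1, Gsta4 and Gsta3 against Gsta2, both in log2(FPKM + 1), with filled points for lines of 2 or 3 mice and open points for lines of 1 mouse. Pearson's r is 0.862, 0.626 and 0.294, and IL-1513 lies at the far right of each panel but low in the panel of Gsta3.

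Among the 3 genes themselves, Gsta1 and Gsta4 gave r = 0.518 (permutation p = 0.00421) and rho = 0.50 (permutation p = 0.00592), with r = 0.466 without IL-1513 and IL-4032. The adjusted p over the 33 relations was 0.0232, against a limma adjusted p over all genes of 0.247 with Gsta1 as covariate and 0.0934 with Gsta4. On untransformed FPKM r was 0.325 (permutation p = 0.0762). Gsta3 and Gsta4 gave r = 0.377 (permutation p = 0.0436) and rho = 0.226 (permutation p = 0.239), with an adjusted p of 0.12 over the 33 relations and limma adjusted p of 0.723 with Gsta3 and 0.245 with Gsta4 as covariate. This relation rests on few lines, since r was 0.152 (permutation p = 0.451) without IL-2011 and IL-2126 and 0.173 without IL-2126 alone. Without IL-1052 and IL-2750 the p was 0.0505 in the permutation test. Gsta1 and Gsta3 gave r = 0.219 (permutation p = 0.254) and rho = 0.179 (permutation p = 0.35), with r = 0.268 without IL-1513 and IL-4032. Without IL-1513 alone r was 0.374 with permutation p = 0.0498.

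Line mates were compared next. For the 47 mice of lines with several mice, the deviations of log2(FPKM + 1) from the line mean had r = 0.831 between Gsta1 and Gsta2, 0.802 between Gsta4 and Gsta2, 0.671 between Gsta1 and Gsta4, and 0.429 between Gsta3 and Gsta2. The values are a description without a test, because mates of a line of 2 mirror each other. Without the 3 mice of IL-2156, of which 1 was low in each of the genes, the values were 0.783, 0.701, 0.543 and 0.406. Gsta3 and Gsta1 had r = 0.108 among mates.

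**Figure D4:**
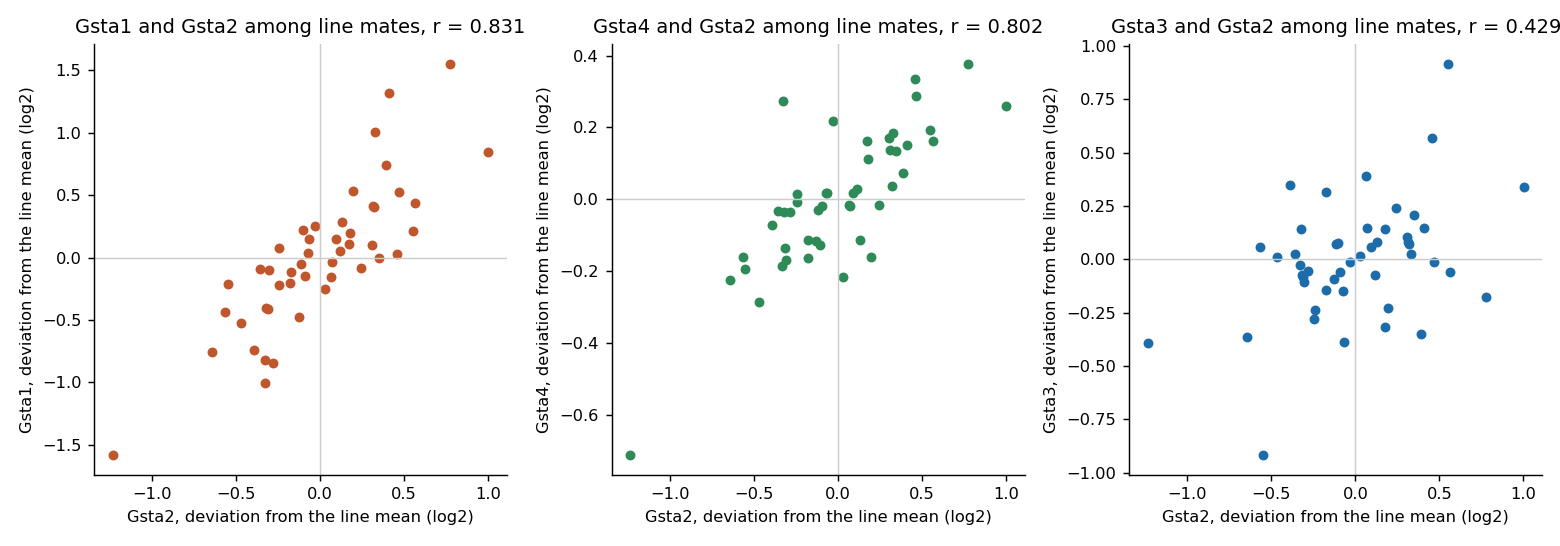
Deviations of the 47 mice of 21 lines from their line mean in log2(FPKM + 1), for Gsta1, Gsta4 and Gsta3 against Gsta2, 1 point per mouse. The points rise together for Gsta1 (r = 0.831) and Gsta4 (r = 0.802) and scatter more for Gsta3 (r = 0.429), and the mouse at the lower left of each of the first 2 panels is from IL-2156.

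The promoters of Gsta1 and Gsta2 are shown because these genes had the closest relation. Each is the 250 bases before the transcription start from RefSeq on GRCm38.p6, a later build than that of the deposited files, at chr9:78230419-78230668 on the plus strand for Gsta1 and chr9:78347146-78347395 on the minus strand for Gsta2. Capitals mark the runs of at least 15 bases that both hold, 44 bases in all.
Gsta1 promoter: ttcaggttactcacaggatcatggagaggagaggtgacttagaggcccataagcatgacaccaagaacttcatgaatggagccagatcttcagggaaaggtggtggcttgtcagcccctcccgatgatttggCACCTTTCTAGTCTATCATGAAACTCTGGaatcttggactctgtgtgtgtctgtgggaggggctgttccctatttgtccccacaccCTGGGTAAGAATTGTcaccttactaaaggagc
Gsta2 promoter: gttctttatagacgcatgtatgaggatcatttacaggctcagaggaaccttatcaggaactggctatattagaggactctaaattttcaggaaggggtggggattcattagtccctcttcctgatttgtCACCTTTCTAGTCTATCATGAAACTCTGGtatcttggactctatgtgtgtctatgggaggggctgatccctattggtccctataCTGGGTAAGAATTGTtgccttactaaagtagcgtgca
The 2 windows were 70.5% identical, and that of Gsta3 was 50.7% identical to Gsta1. The core of the antioxidant response element, searched as TGACNNNGC on both strands, was in 10.2% of 32851 promoter windows. It was in the window of Gsta3, as TGACATTGC from 121 to 113 bases before the start, and these letters did not occur in the windows of Gsta1 and Gsta2. Only the 250 bases before an annotated start were searched, and sequence farther upstream or at other starts was not examined.

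The genes whose line means were most like those of each gene were read from the same limma fits (10332 genes tested, a likeness that says nothing of shared function). For Gsta1 the only gene called was Gsta2 (0.00968% of genes called positive and 0% negative). Outside the alpha class the highest r were those of Phf13, Tnrc6c, Mfn1, Pmm2 and Dlg1, from 0.684 to 0.666, and the lowest that of the cytochrome P450 gene Cyp2c67 at -0.61, followed by Tmem80 and Fam187b. None of these passed, with adjusted p of 0.163 or more, and 1069 genes had an unadjusted p below 0.05.

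For Gsta3 limma called 0 genes, with 697 at an unadjusted p below 0.05 (0% called in either direction). The highest r were those of Cyb5, the microsomal electron carrier cytochrome b5, at 0.716, of Zap70 at 0.685, of Echs1, a hydratase of mitochondrial fatty acid oxidation, at 0.667, of Aldh4a1, an enzyme of proline breakdown, at 0.654, and of Tk1 at 0.637. The adjusted p of Cyb5 was 0.108. The lowest r were those of Pcgf2 (-0.64), Inhba (-0.62) and Tomm40l (-0.60).

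For Gsta4 limma called 40 genes, 39 of them positive (0.377%) and 1 negative (0.00968%). Highest was the gene model Gm10639 (r = 0.782, adjusted p = 0.00221), which lies between Gsta1 and Gsta2, with a median line mean of 0.51 FPKM and 26 of 55 mice under 10 estimated fragments. Its mean over the mice was 1.45 FPKM, near the limit of 1 FPKM for these fits, with line means of 12.5 FPKM in IL-2126 and 10.3 FPKM in IL-2680. Without IL-2126 and IL-2680, its r with Gsta4 was 0.662. Outside the alpha class the highest were Nsun2, an RNA methyltransferase (r = 0.738, adjusted p = 0.032), Tmem57 (r = 0.732, adjusted p = 0.0306), Itpr1, a calcium release channel (r = 0.715, adjusted p = 0.0418), Trim28 (r = 0.702) and Lsm1 (r = 0.698). The count depended on single lines, as it was 0 without IL-2126 and 141 without IL-2156, 1 without IL-1052 and IL-2750, and 791 with TPM in place of FPKM.

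Other glutathione transferases and their companion pathways gave no calls with the 3 genes. In none of the 12 lists examined did a gene pass limma's adjusted threshold with Gsta1, Gsta3 or Gsta4. Counts at an unadjusted p below 0.05 are given beside the share of all 10332 genes that reached it, which was 10.3% with Gsta1, 6.75% with Gsta3 and 18.6% with Gsta4. Of the 19 tested glutathione transferases outside the alpha class, 4 had an unadjusted p below 0.05 with Gsta1, 6 with Gsta3 and 5 with Gsta4, all positive. Their median r was 0.191, 0.242 and 0.133, beside 0.108, 0.0187 and 0.127 over all genes tested. Gstm1, the main mu-class enzyme of mouse liver, had r = 0.523 with Gsta1 and 0.532 with Gsta3. Gsto1 had r = 0.604 with Gsta1, and Gstt2 had r = 0.53 with Gsta4. Among 20 genes of glutathione synthesis, recycling and use, 5, 0 and 3 had an unadjusted p below 0.05. The highest was Cth, which makes cysteine for glutathione, with r = 0.637 and adjusted p = 0.163 for Gsta1. Of the Nrf2 response genes, 22 were tested and 5, 6 and 7 had an unadjusted p below 0.05, with median r of 0.16, 0.141 and 0.258. Ephx1, microsomal epoxide hydrolase, stood among them for each gene, with r of 0.499 for Gsta1, 0.519 for Gsta3 and 0.451 for Gsta4.

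Of 15 tested xenobiotic receptors and their targets, 2 had an unadjusted p below 0.05 with Gsta1, 3 with Gsta3 and 8 with Gsta4, where 18.6% of all genes did, and their median r with Gsta4 was 0.374. The receptors Nr1i2 (pregnane X receptor) and Nr1i3 (constitutive androstane receptor) had r = 0.549 and 0.544 with Gsta4, each with adjusted p = 0.0829, and Cyp2b13 had r = 0.591 with adjusted p = 0.0568. Pericentral hepatocyte genes had a median r of 0.188, 0.192 and 0.283 with Gsta1, Gsta3 and Gsta4, and periportal genes 0.203, 0.251 and 0.151. Of 10 pericentral genes tested, 4, 2 and 4 had an unadjusted p below 0.05, all positive. Of 10 periportal genes, 1, 3 and 1 did with positive r, and 1 with negative r for Gsta4. The summed FPKM of the pericentral genes had r = 0.25, 0.355 and 0.519 with Gsta1, Gsta3 and Gsta4, and that of the periportal genes 0.428, 0.455 and 0.253.

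**Figure D5:**
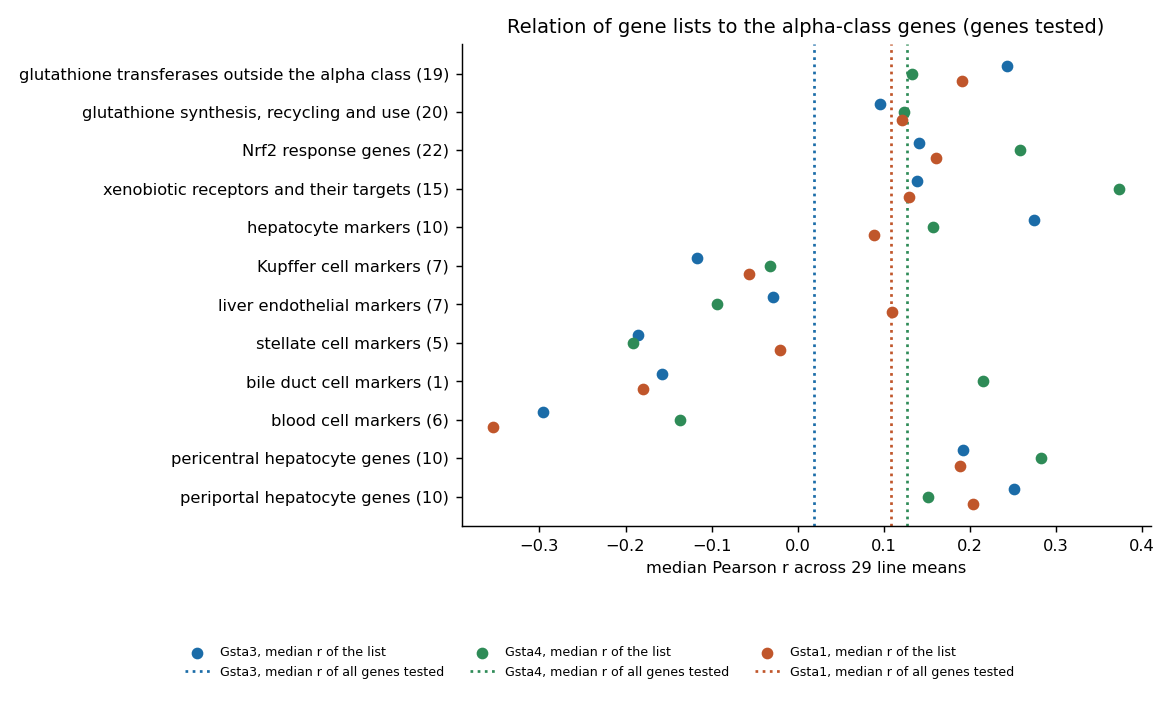
Median Pearson r of the genes of each list with Gsta3, Gsta4 and Gsta1 across 29 line means, with the number of genes tested in parentheses and dotted lines at the median over all genes tested. The xenobiotic receptors and their targets have the highest median for Gsta4 at 0.374, and blood cell markers the lowest for Gsta1 at -0.35.

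Markers of hepatocytes and of other liver cells were summed per line, and fewer cells of a type and less RNA per cell cannot be told apart in such bulk tissue. The 10 hepatocyte markers summed to 32192 to 71044 FPKM per line, with none at a mean below 1 FPKM. Kupffer cell markers summed to 19.2 to 216 FPKM, liver endothelial markers to 16.6 to 79.0 FPKM, stellate cell markers to 12.6 to 126 FPKM and bile duct markers to 9.75 to 155 FPKM, where 5 of 6 had a mean below 1 FPKM. Blood cell markers, mostly globins, summed to 511 to 4174 FPKM per line, and their sum had r = -0.38 with Gsta1, -0.38 with Gsta3 and -0.15 with Gsta4. The hepatocyte sum had r = 0.499 with Gsta3, -0.27 with Gsta1 and 0.0917 with Gsta4. These are descriptions, and the part of blood or hepatocyte content in the results was not tested.

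Depth, age and body weight were compared with the line means too, and their part in the results was not tested beyond regressing them out. Body weight had r = -0.48 with Gsta2 (permutation p = 0.00779, adjusted p = 0.0367 over the 33 relations) and rho = -0.42 (permutation p = 0.0236, adjusted p = 0.0708), and r = -0.43 without IL-4457 and IL-785. For Gsta1 the values were r = -0.41 (permutation p = 0.0275, adjusted p = 0.0909) and rho = -0.30 (permutation p = 0.116), and r = -0.43 without the same lines. Gsta4 had r = 0.389 with age (permutation p = 0.0378, adjusted p = 0.113) and rho = 0.292 (permutation p = 0.124), and r = 0.125 without IL-2126 and IL-2680. With depth, age and weight regressed out of the line means, r with Gsta2 was 0.866 for Gsta1, 0.691 for Gsta4 and 0.257 for Gsta3.

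No gene next to the 3 loci was called with them. Of 9 tested genes outside the alpha class that start within 1 Mb of Gsta1 or Gsta4, limma called 0. Their r lay between -0.24 and 0.29 with Gsta1 and between -0.18 and 0.438 with Gsta4, the highest being Fbxo9, a ubiquitin ligase subunit (adjusted p = 0.173). Gclc, the catalytic subunit of the rate-limiting enzyme of glutathione synthesis, lies in the same interval and had r = -0.02 with Gsta1 and -0.11 with Gsta4. Around Gsta3, 4 genes were tested, and Tmem14a, which starts 22.0 kb before it, had the highest r at 0.466 (adjusted p = 0.723).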

How the data were processed

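Poly(A) RNA of 55 livers was sequenced from both ends (50 bases each), and the authors aligned fragments with Bowtie 2 and quantified them with RSEM 1.2.18 at default settings on mm9 with Ensembl gene models. The deposited tables give, per mouse, the expected count of each gene and isoform (estimated counts in which multi-matching fragments are divided), the deposited TPM and FPKM, and the deposited percent of a gene attributed to each isoform. Default settings ignore strand although the libraries mark it, so antisense or overlapping transcripts are not separated.

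Groups were the 29 lines of the labels. Symbols matched 37205 of 37620 gene identifiers. Expected counts were rounded to whole numbers and tested for line with edgeR 4.0.16 (quasi-likelihood, TMM, default filter). Isoform percentages were turned into van der Waerden scores after rounding in steps of 0.5 or, where larger, of the largest value over 200, for isoforms with at least 12 levels of genes reaching 2 FPKM, and tested with limma 3.58.1. Relations used log2(FPKM + 1) of line means, 100000 permutations (two-sided) and limma over genes with a mean of at least 1 FPKM. The share of variance between lines was the intraclass correlation of the scores, tested one-sided by permuting line labels. Calls had an adjusted p below 0.05 (Benjamini-Hochberg). Each sample has its own number in the labels. The edgeR and limma tests for line set the differences between lines against the spread between line mates, each mate being 1 sample. The p-values of the relations measure the spread between line means. The edgeR and limma tests were also run on simulated data, where 200 genes were given an effect of known size. The edgeR test for line recovered 200 of them, limma's fit of relations 176 and limma's test for line on scores 113. Both limma tests thus missed some effects of the size given. The simulated spread was set and not taken from these livers, so the recovered numbers do not give the power for Gsta1, Gsta3 or Gsta4. The genes, lists and tests were chosen with earlier results of these data known. Named genes were the 5 highest and 3 lowest r per gene (alpha class and unnamed models left out), up to 4 genes per list by absolute r, and genes within 1 Mb. A gene that this rule selects is not reported here. Alternatives were DESeq2 1.42.0, other scaling, filters, pseudocounts, TPM, covariates, and leaving out mice or lines. Reference sequences come from 1 strain, and differences of the lines from it were not examined.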

Additional observations from a re-analysis of the deposited data

How the results depend on the processing

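No paired analysis was possible because the labels give no replicate numbers, so mice of different lines share none. Of the alternatives, Gm3776 added to Gsta1 and isoforms without IL-2156 were chosen after seeing the data. The relation of Gsta1 to Gsta2 kept its direction and its call under each alternative computed, with r from 0.785 (Gm3776 added) to 0.873 (lines with at least 2 mice), and from 0.832 to 0.88 with a line or mouse left out. Gsta4 to Gsta2 ran from 0.531 to 0.691, and from 0.579 to 0.674 with one left out. Gsta3 to Gsta2 passed an unadjusted 0.05 over the 55 mice (r = 0.337), a setting that treats line mates as independent points, which they are not. It also passed without the 2 lines farthest on the x axis (r = 0.443), and ran from 0.191 to 0.469 with one left out. Gsta3 to Gsta1 ran from 0.098 to 0.374 with one left out. Gsta4 to Gsta1 was 0.325 on untransformed FPKM, no longer past 0.05, and ran from 0.443 to 0.577. Gsta4 to Gsta3 lost its unadjusted call with lines of at least 2 mice (r = 0.199), without IL-1052 and IL-2750 (0.378), with covariates regressed out (0.308), without the 2 farthest lines (0.152) and in 21 of 84 single omissions (0.173 to 0.428).

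The intraclass correlation of Gsta3 was 0.388 on log2 values, no longer past 0.05. With each mouse left out it ran from 0.333 to 0.555 for Gsta1, 0.393 to 0.545 for Gsta3 and 0.618 to 0.791 for Gsta4. The highest-to-lowest ratio of Gsta4 was 4.56 in lines of at least 2 mice. With a mouse left out the ratio was 27.9 to 75.4 for Gsta1 (highest without the first mouse of IL-519), 2.86 to 7.65 for Gsta3 and 5.47 to 11.5 for Gsta4.

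Genes with a line effect numbered 13318 to 13832 with a mouse left out, and DESeq2 called 13653. Isoforms numbered 2225 with 1 isoform per gene, where fewer were tested, and 5210 to 6452 with a mouse left out. Genes related to Gsta2 numbered 1 without a filter, with TPM, with covariates and without IL-1052 and IL-2750, 5 in lines of at least 2 mice, and 1 to 74 with a line left out. Genes related to Gsta1 numbered 1 to 3 with a line left out (3 without IL-1513, 2 without IL-519), and those related to Gsta3 numbered 0 to 2 (2 without IL-2011) and 1 with TPM. Those related to Gsta4 numbered 8 with pseudocount 0.1, 192 without a filter, 791 with TPM, 1 without IL-1052 and IL-2750, 0 in lines of at least 2 mice, 0 with covariates and 0 to 141 with a line left out. In 26 of the 29 omissions of a line this count moved more than 1.5 times, the exceptions being IL-1452, IL-2011 and IL-4052. Which property of a setting moved it was not tested. Gsta1 rests on few fragments and few windows of its own, which limits its levels and isoform shares.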
